A study of Homo sapiens with 9 samples.

Results

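The genes described here are 10 classical targets of YAP1 and the TEAD transcription factors: ANKRD1, CCN1, CCN2, F3, NT5E, CRIM1, MYOF, FJX1, NUAK2 and ASAP1. They were taken by gene symbol from the array's annotation, in which 9 of the 10 had at least 1 probe set of their own, 21 probe sets in all, among 19775 genes and 54613 probe sets. The exception was NUAK2, a kinase of the AMPK-related family, because its single probe set also names AKIP1; no value is given for it. Transcripts were measured on 9 single-colour arrays of total RNA from HuCCT1 cells, an established line derived from a human cancer of the bile ducts. On 4 arrays the cells had been transfected with an empty vector (empty vector) and on 5 with a vector for the S127A mutant of YAP1 (YAPS127A). No time after transfection is given, nor whether the cells were a pool or a clone. The labels number the samples but do not say that they were separate cultures, so the p-values here cover the spread between samples, part or all of which may be technical.

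YAP1 is a co-activator that the Hippo pathway holds in check. The LATS kinases phosphorylate it, which keeps it in the cytoplasm; S127A removes a serine they use, and the mutant is constitutively active. YAP1 and its relative TAZ, encoded by WWTR1, do not bind DNA by themselves and reach their targets through TEAD factors, often together with AP-1. ANKRD1, CCN1 and CCN2 are the genes most used to read out this activity, and in bile duct cancer cells YAP1 is known for promoting growth and survival.

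The promoter windows of 4 members are shown first: ANKRD1, which rose, FJX1, which fell, and CCN2 and F3, which did not pass. RefSeq promoter windows (GRCh38.p14) of 7 members were used, NUAK2 among them. The source held no window for CCN1 and CRIM1. ASAP1 was left out of the search by choice, so its promoter was not examined. In the 250 bases before the annotated start, both strands were searched for the TEAD core GGAATG and for the AP-1 motif TGANTCA, which do not overlap each other here. Capitals mark the matches, and each sequence runs 5′ to 3′ in the direction of the gene.

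ANKRD1 (chr10:90921088-90921337, minus strand): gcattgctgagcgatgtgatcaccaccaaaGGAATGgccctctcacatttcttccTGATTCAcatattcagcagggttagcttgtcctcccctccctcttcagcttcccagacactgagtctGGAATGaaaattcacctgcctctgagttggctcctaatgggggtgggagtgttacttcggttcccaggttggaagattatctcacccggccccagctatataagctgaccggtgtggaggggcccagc

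CCN2 (chr6:131951373-131951622, minus strand): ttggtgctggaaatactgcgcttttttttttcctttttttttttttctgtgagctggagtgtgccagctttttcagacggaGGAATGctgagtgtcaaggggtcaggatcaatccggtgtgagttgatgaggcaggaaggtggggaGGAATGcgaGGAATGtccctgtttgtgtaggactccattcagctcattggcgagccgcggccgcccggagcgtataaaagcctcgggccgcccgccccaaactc

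F3 (chr1:94541760-94542009, minus strand): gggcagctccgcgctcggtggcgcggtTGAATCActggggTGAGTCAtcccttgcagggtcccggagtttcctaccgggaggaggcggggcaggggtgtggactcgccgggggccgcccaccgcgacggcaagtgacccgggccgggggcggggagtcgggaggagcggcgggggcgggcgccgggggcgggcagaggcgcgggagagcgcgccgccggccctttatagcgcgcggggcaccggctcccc

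FJX1 (chr11:35618210-35618459, plus strand): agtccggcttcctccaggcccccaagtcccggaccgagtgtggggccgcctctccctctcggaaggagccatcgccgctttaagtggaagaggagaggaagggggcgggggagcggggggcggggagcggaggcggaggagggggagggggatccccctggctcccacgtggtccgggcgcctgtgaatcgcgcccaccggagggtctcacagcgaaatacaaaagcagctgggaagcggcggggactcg

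The ANKRD1 window held 2 TEAD cores, beginning 220 and 128 bases before the start, and 1 AP-1 motif at 195. CCN2 held 3 TEAD cores, at 169, 104 and 95 bases before the start. F3 held no TEAD core and 2 AP-1 motifs, at 223 and 210 bases before the start, while the windows of FJX1, MYOF and NT5E held neither motif. NUAK2 held 2 TEAD cores, at 197 and 18. A TEAD core occurred in 11.9% of all 35116 windows of this length and an AP-1 motif in 6.57%. These matches are letters in a window, not measured binding, and many TEAD sites lie in distant enhancers.

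Of the 9 measured members, 4 rose with YAPS127A (ANKRD1, CCN1, CRIM1 and MYOF), 1 fell (FJX1), and CCN2, F3, NT5E and ASAP1 did not pass. ANKRD1 rose 4.73-fold, and the other rises were 1.33- to 1.43-fold. Each gene was represented by its brightest probe set, and a change was called in limma at an adjusted p (Benjamini-Hochberg over all probe sets) below 0.05. Much of the transcriptome passed that test: 28.7% of all genes were called, 14.5% higher and 14.2% lower. Of the genes brighter than the median probe set, as all 9 members were, 21.0% were called higher and 19.8% lower. So 4 of 9 higher lies above the background share, and 1 of 9 lower does not. The members were chosen with earlier results of these data known, so this comparison is not independent of the data. The difference between the shares was not tested. The groups did not overlap in 6 of the 9 members, against 28.3% of all genes. That share includes dim genes, and it was not counted for genes brighter than the median probe set. The median log2 difference was 0.22 over the members and 0.00 over all genes.

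**Figure D1:**
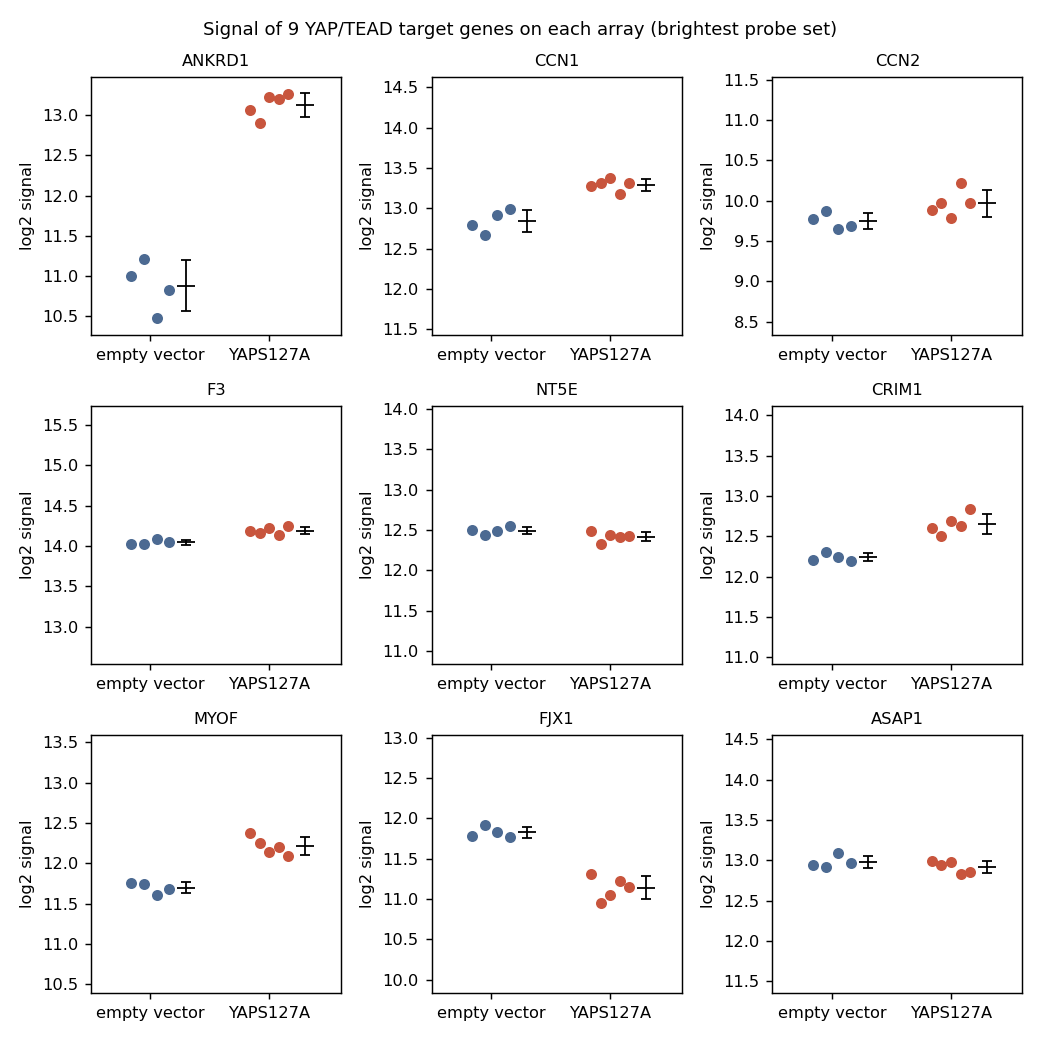
Log2 signal (vertical axis; every panel spans the same range) of the brightest probe set of 9 genes on each of 4 empty vector arrays (blue) and 5 YAPS127A arrays (red); black marks give mean ± SD. ANKRD1 moved by 2.24 on this scale, FJX1 moved down, and the groups overlap in CCN2, NT5E and ASAP1.

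ANKRD1 encodes an ankyrin repeat protein of the nucleus and the muscle sarcomere that is a standard reporter of YAP activity. Its log2 signal was 11.00, 11.22, 10.48 and 10.83 on the empty vector arrays and 13.06, 12.89, 13.22, 13.19 and 13.26 on the YAPS127A arrays. All YAPS127A arrays therefore lay far above all empty vector arrays, and the third empty vector array was the lowest. The means were 10.88 ± 0.31 (SD, n = 4) and 13.13 ± 0.15 (SD, n = 5), a log2 difference of 2.24 (SE 0.13, limma adjusted p = 3.38e-07). The 95% interval of the fold was 3.86 to 5.8. A 2-sided exact permutation test of the group labels gave p = 0.00794, the smallest that 4 arrays against 5 allow, and 48 genes had a higher log2 difference. The third empty vector array also had the largest 3′ to 5′ gap of the actin control probe sets in its group, a measure of RNA integrity and labelling, at 1.69 against 0.98 to 1.18 on the others. With that gap as a covariate ANKRD1 differed by 2.18 (adjusted p = 1.31e-06), and by 2.12 with the array of the largest gap left out of each group.

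CCN1 and CCN2 encode secreted matricellular proteins that bind integrins and growth factors, formerly named CYR61 and CTGF. The brightest CCN1 probe set (201289_at) read 12.80, 12.67, 12.92 and 12.99 with the empty vector and 13.27, 13.32, 13.38, 13.17 and 13.31 with YAPS127A. The groups did not overlap, and the difference was 0.45 (SE 0.08, adjusted p = 0.00114; 1.36-fold). Its other probe set (210764_s_at) was tighter, at 12.50, 12.45, 12.46 and 12.53 against 13.16, 13.23, 13.05, 13.18 and 13.12, and rose by 0.66 (SE 0.06, adjusted p = 9.42e-06; 1.58-fold). The changes of these probe sets differed by 0.21 (95% interval 0.01 to 0.42), which did not pass over all such pairs (limma, adjusted p = 0.173).

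CCN2 was read by a single probe set, at 9.78, 9.87, 9.65 and 9.69 with the empty vector and 9.88, 9.98, 9.78, 10.22 and 9.97 with YAPS127A. The groups overlapped: the third YAPS127A array lay below the second empty vector array, and the fourth stood highest. The difference of 0.22 (SE 0.09; fold interval 1.02 to 1.33) did not pass: limma gave an adjusted p = 0.107 and the 2-sided exact permutation test p = 0.0317. On the log2 scale its 95% interval, 0.02 to 0.42, lay wholly below that of ANKRD1, 1.95 to 2.54.

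F3 encodes tissue factor, the membrane receptor that starts blood coagulation. It was near the top of the array's range, at 14.02, 14.02, 14.08 and 14.05 with the empty vector and 14.18, 14.16, 14.23, 14.14 and 14.25 with YAPS127A, where the highest value of any probe set was 14.96. The groups did not overlap, but the difference was small, 0.15 (SE 0.06; fold interval 1.02 to 1.21). It missed the threshold (adjusted p = 0.0817; 2-sided exact permutation p = 0.00794). F3 did pass with trend and robust variance settings (adjusted p = 0.00322), with dim probe sets left out (adjusted p = 0.0346) and in the fit on gene means (adjusted p = 0.0323).

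NT5E encodes CD73, the ectoenzyme that turns AMP outside the cell into adenosine. Its 4 probe sets did not move alike. The brightest (203939_at) read 12.50, 12.44, 12.49 and 12.55 against 12.49, 12.33, 12.43, 12.41 and 12.43, overlapping between groups, with a difference of -0.08 (SE 0.06, adjusted p = 0.43). Probe set 227486_at read 9.22, 9.47, 9.68 and 9.06 with the empty vector and 8.86, 8.68, 8.46, 8.66 and 8.44 with YAPS127A. Every YAPS127A array was below every empty vector array at that probe set, and it fell by 0.74 (SE 0.13, adjusted p = 0.00126; 1.67-fold lower). The change there differed from that of the brightest by 0.66 (SE 0.14, adjusted p = 0.0106). Each gene's brightest probe set was compared with each of its others, and this was the 1 pair called of 12 such pairs among the members, against 13.1% of 21316 over all genes. Pairs without the brightest probe set were not compared. The remaining probe sets, 1553995_a_at and 1553994_at, differed by -0.01 and 0.19 and did not pass (adjusted p = 0.938 and 0.213). The array with the highest signal at 227486_at was again the third empty vector array; with the actin gap as a covariate the difference was -0.66 (adjusted p = 0.00157). The sources used here do not say which part of the NT5E transcript each probe set reads.

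**Figure D2:**
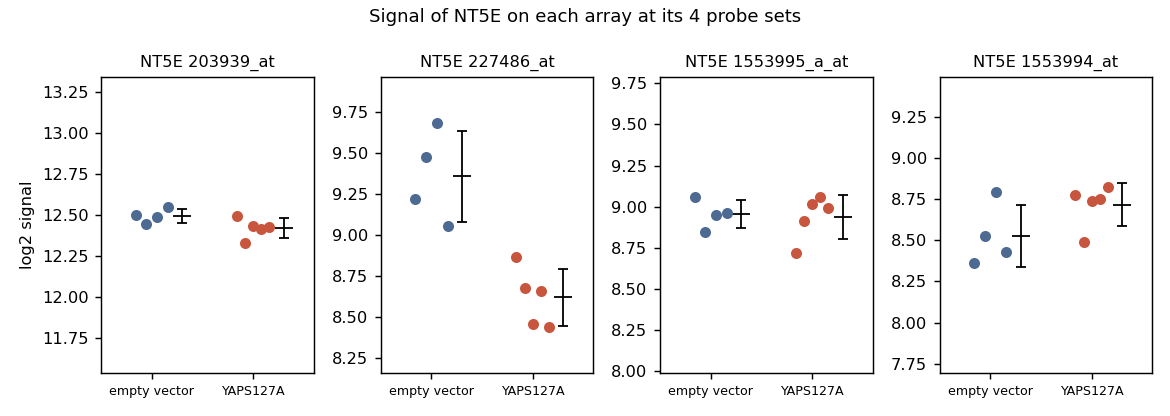
Log2 signal of NT5E (vertical axis) on each empty vector (blue) and YAPS127A (red) array, 1 panel per probe set; black marks give mean ± SD. The groups are apart at 227486_at, which fell by 0.74, and overlap at the other probe sets.

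CRIM1 encodes a membrane protein that binds bone morphogenetic proteins. Its brightest probe set (228496_s_at) read 12.21, 12.31, 12.25 and 12.20 with the empty vector and 12.60, 12.50, 12.69, 12.62 and 12.84 with YAPS127A. The groups were apart, and the difference was 0.41 (SE 0.07, adjusted p = 0.00149; 1.33-fold). The other probe sets rose by 0.38 and 0.47 (adjusted p = 0.00149 and 0.00365), so all 3 gave rises of nearly the same size.

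MYOF encodes myoferlin, a ferlin of membrane repair and receptor recycling. Its brightest probe set (201798_s_at) read 11.76, 11.75, 11.61 and 11.69 against 12.38, 12.25, 12.14, 12.21 and 12.10. These did not overlap, and the difference was 0.51 (SE 0.07, adjusted p = 0.000251; 1.43-fold). The other probe sets rose by 0.56 and 0.64 (adjusted p = 0.000261 and 0.00016).

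FJX1 encodes the human counterpart of the fly protein four-jointed, a Golgi kinase that modifies the Fat and Dachsous cadherins upstream of Hippo signalling. It was the member that fell. Its single probe set read 11.79, 11.92, 11.83 and 11.77 with the empty vector and 11.32, 10.95, 11.05, 11.23 and 11.15 with YAPS127A. All YAPS127A arrays lay below all empty vector arrays, and FJX1 fell by 0.68 on the log2 scale (SE 0.08, adjusted p = 6.77e-05), or 1.61-fold (95% interval 1.42 to 1.81).

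ASAP1 encodes a GTPase-activating protein for Arf that acts in podosomes and focal adhesions. Its brightest probe set read 12.95, 12.92, 13.09 and 12.97 against 12.99, 12.95, 12.98, 12.83 and 12.85. The groups overlapped there and at the other 4 probe sets, and the differences ran from -0.11 to -0.02 with adjusted p-values of 0.428 to 0.91. The 95% interval of the brightest, -0.21 to 0.08, holds no rise as large as that of CCN1.

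**Figure D3:**
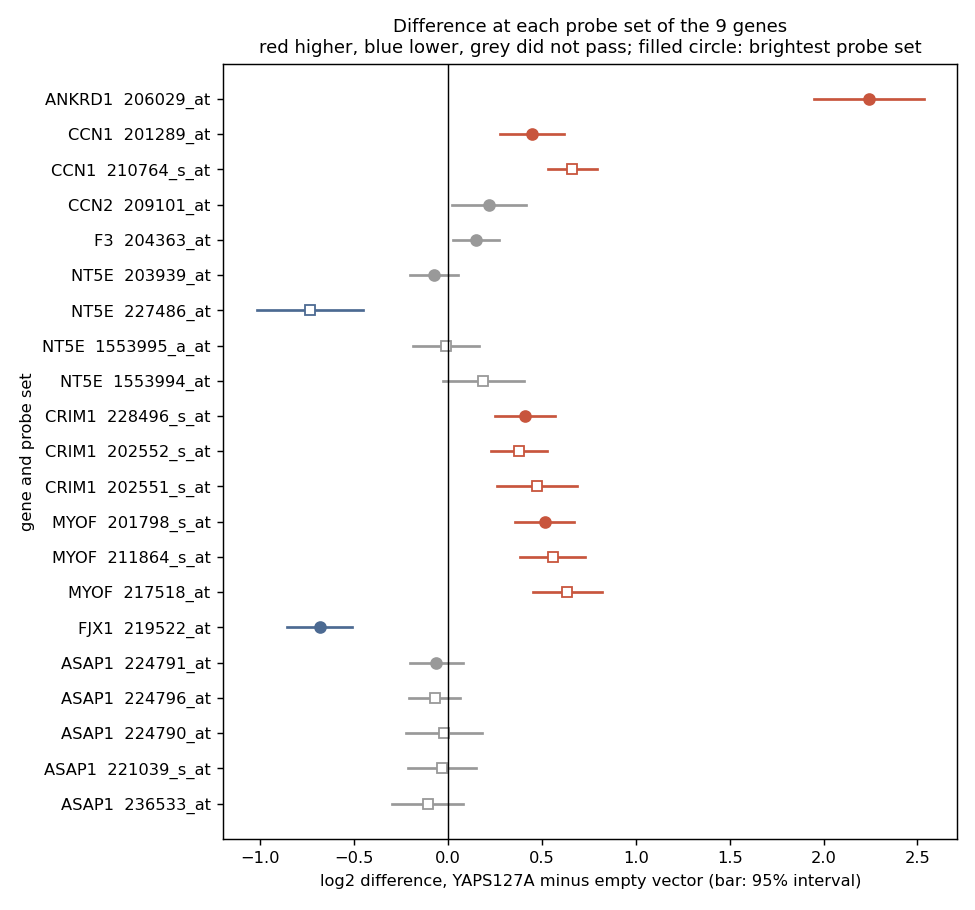
Log2 difference, YAPS127A minus empty vector (horizontal axis), with its 95% interval at each of the 21 probe sets of 9 genes; filled circles are the brightest probe sets. Of the 21, 9 rose (red), 2 fell (blue) and 10 did not pass (grey); the probe sets of CRIM1, MYOF and ASAP1 lie close together and those of NT5E do not.

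Genes near several members on the chromosome had shifted too. For each member, the median difference from the empty vector mean was taken on every array over 50 neighbouring genes with a signal above the median. Around ANKRD1 and MYOF, both on chromosome 10, this median was 0.37 and 0.32 higher with YAPS127A. It was 0.44 higher around CCN1 and 0.46 higher around F3, both on chromosome 1. These are not separate measurements, since 36 of the 50 neighbours were shared by ANKRD1 and MYOF and 12 by CCN1 and F3. Around CCN2 on chromosome 6 it was lower (-0.51), as it was around FJX1 on chromosome 11 (-0.42) and ASAP1 on chromosome 8 (-0.23). The neighbours of CRIM1 on chromosome 2 (-0.03) and of NT5E on chromosome 6 (0.02) hardly moved. The part of these regional shifts in the changes of the members was not tested.

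When this neighbourhood median was subtracted on each array before the fit, 3 members were called higher, 2 lower and 4 did not pass, against 15.6% higher and 15.5% lower over all genes. ANKRD1 was higher by 1.88 (SE 0.13, adjusted p = 9.67e-07) and CRIM1 by 0.44 (adjusted p = 0.000907), so these 2 passed on either scale. CCN2 was now called, higher by 0.72 (SE 0.10, adjusted p = 0.000198). CCN1 no longer passed at its brightest probe set (0.00, adjusted p = 0.984), while 210764_s_at still did (0.22, adjusted p = 0.0363). MYOF missed the threshold at 0.19 (adjusted p = 0.0669), with its 217518_at still called (0.31, adjusted p = 0.0104), and it passed when 20 neighbours were used (0.23, adjusted p = 0.0454). F3 turned to the other direction and was called lower (-0.31, SE 0.06, adjusted p = 0.00146). FJX1 was lower by a smaller amount (-0.27, adjusted p = 0.0361), and missed the threshold with 20 neighbours (-0.24, adjusted p = 0.0576). Over all 21 probe sets, 7 were called higher and 3 lower on this scale. The removal takes for granted that a gene's signal follows that of its neighbours.

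**Figure D4:**
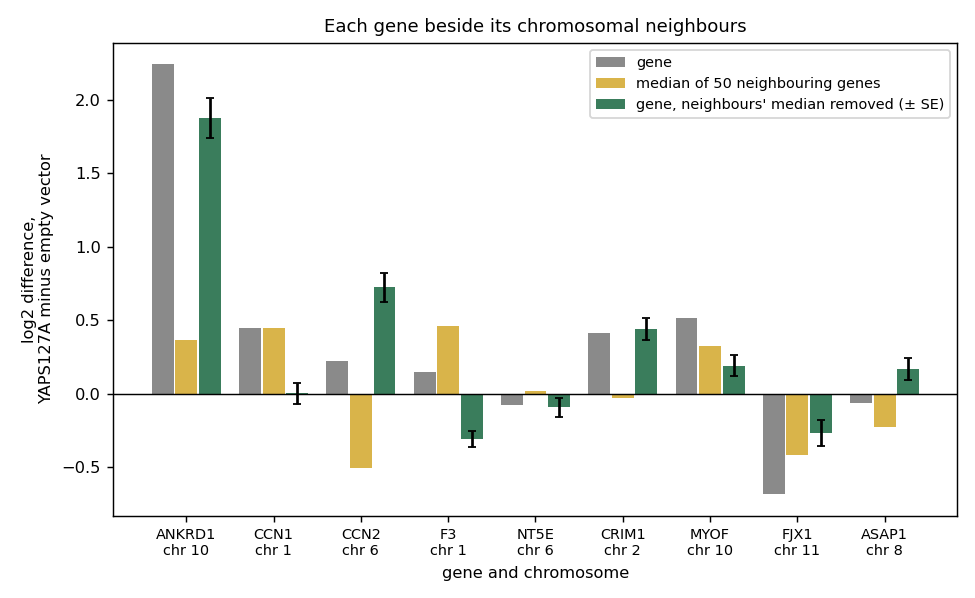
Log2 difference, YAPS127A minus empty vector (vertical axis), of each gene (grey), of the median of its 50 neighbouring genes (yellow) and of the gene with that median removed (green, ± SE). ANKRD1 stays at 1.88, CCN2 goes up to 0.72, CCN1 goes to 0.00 and F3 goes below 0.

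The other 12 genes of a published YAP/TAZ target signature mostly rose: 7 rose, 1 fell and 4 did not pass, with a median log2 difference of 0.39. Over all genes 14.5% were called higher and 14.2% lower. The shares were 21.0% and 19.8% of genes brighter than the median probe set, as all but 1 of the 12 were. IGFBP3, whose product binds insulin-like growth factors, went from 12.32 ± 0.05 (SD, n = 4) to 13.07 ± 0.04 (SD, n = 5), a rise of 0.75 (adjusted p = 2.28e-06). LATS2, a kinase that inhibits YAP, rose by 0.69, CCDC80, a matrix protein gene, by 0.58, and AMOTL2, an angiomotin that binds YAP, by 0.42. The neighbours of LATS2 were higher by 0.30, and with their median removed LATS2 still passed at 0.38 (adjusted p = 0.000965). The receptor tyrosine kinase gene AXL fell by 0.30 (adjusted p = 0.00172); it is named because it was the 1 that fell. With the neighbours' median removed the counts were again 7, 1 and 4 but not of the same genes. GADD45A, a stress gene on chromosome 1 that rose by 0.40, was then at -0.09 (adjusted p = 0.518), and the phosphatase gene PTPN14 passed at 0.45 (adjusted p = 0.00123). Both were picked out after their values were seen.

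Among the factors that act on the members, 4 of 10 rose, 1 fell and 5 did not pass, against 14.5% higher and 14.2% lower over all genes. Among genes brighter than the median probe set, as all but 1 of the 10 were, 21.0% were higher and 19.8% lower. The brightest probe sets of YAP1 (+0.15, adjusted p = 0.121) and WWTR1 (+0.02, adjusted p = 0.862) did not pass; of 3 probe sets each, 1 of WWTR1 and 0 of YAP1 were called higher. Whether those of YAP1 can read the construct is not known, so they do not check the labels. TEAD1 (+0.14, adjusted p = 0.128) did not pass either, and TEAD4 rose by 0.40 (adjusted p = 0.00038). With trend and robust settings YAP1 and TEAD1 did pass (adjusted p = 0.0337 and 0.0472). VGLL1 and VGLL3, cofactors that bind TEAD in place of YAP, rose by 1.01 and 0.79, and VGLL4, an antagonist of YAP on TEAD, fell by 0.49. The neighbours of VGLL4 were lower by nearly as much (-0.40), and it did not pass with their median removed (-0.09, adjusted p = 0.373). TEAD3, named to complete the count, rose by 0.22 (adjusted p = 0.0415). Its call was lost without any 1 of the empty vector arrays or without YAPS127A replicate 1, 2 or 5, with adjusted p-values of 0.0622 to 0.108, as well as with arrays centred on their medians (adjusted p = 0.0525) or with trend and robust settings (adjusted p = 0.0511). VGLL2 had a low signal, 4.84 with the empty vector and 4.64 with YAPS127A, and did not pass (-0.20, adjusted p = 0.276). It was called lower without YAPS127A replicate 1 (-0.30, adjusted p = 0.0332). With the neighbours' median removed it was at 0.21 and did not pass (adjusted p = 0.189).

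**Figure D5:**
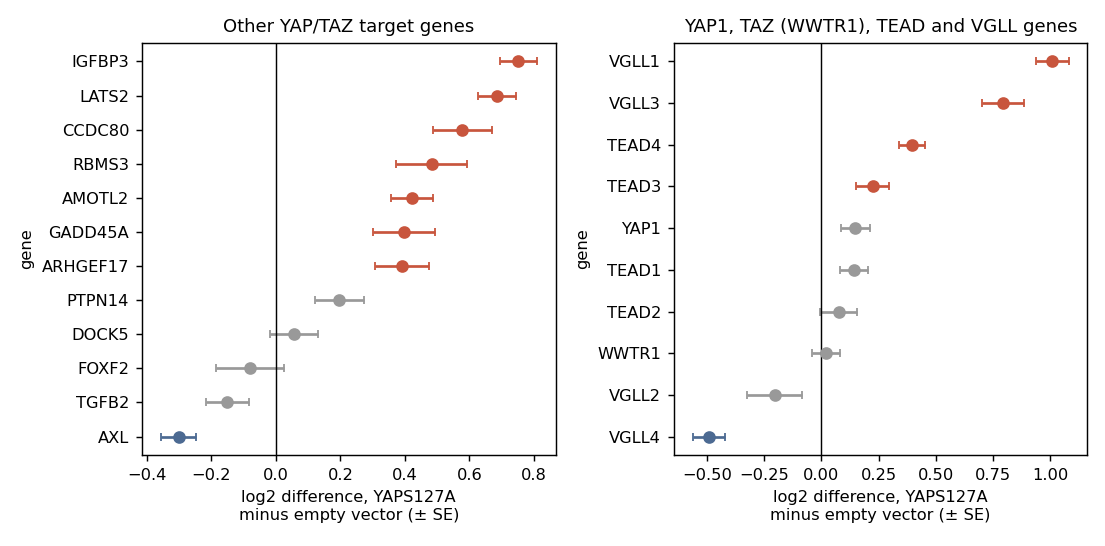
Log2 difference, YAPS127A minus empty vector (horizontal axis, ± SE), of 12 other YAP/TAZ target genes (left) and of 10 genes for YAP1, TAZ, TEAD and VGLL factors (right); red rose, blue fell, grey did not pass. The targets run from -0.30 (AXL) to 0.75 (IGFBP3), the factors from -0.49 (VGLL4) to 1.01 (VGLL1).

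Close relatives of the members were also read. Of 11 with a probe set of their own, 4 rose, 1 fell and 6 did not pass, beside the same 14.5% and 14.2% over all genes. Among genes brighter than the median probe set the shares were 21.0% and 19.8%, but 5 of the 11 were dimmer than that. ANKRD2, a muscle paralog of ANKRD1, rose by 0.90 from a low signal of 6.04 ± 0.14 (SD, n = 4) to 6.94 ± 0.16 (SD, n = 5), and DYSF (dysferlin), a relative of MYOF, rose by 0.36. ASAP3 rose by 0.68 although ASAP1 did not pass. Within the CCN family, CCN3 fell by 0.75 and CCN6, the last of the 5 called and named to complete them, rose by 0.25. The neighbours of ANKRD2 and CCN3 had shifted in the same direction as the gene (0.31 and -0.31), and those of CCN6 in the other (-0.43). With their median removed ANKRD2, CCN3 and CCN6 differed by 0.59, -0.44 and 0.68, and all passed. CCN4, which had not passed (0.16, adjusted p = 0.242), was called higher on that scale (0.36, adjusted p = 0.0043). Its signal, 3.91 with the empty vector and 4.07 with YAPS127A, lay within the dimmest quartile of probe sets. Averaged over its probe sets CCN6 did not pass (0.14, adjusted p = 0.106).

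Partners of F3, NT5E and FJX1 moved in both directions: 6 of 19 rose and 4 fell, where 14.5% and 14.2% of all genes did. Among genes brighter than the median probe set 21.0% rose and 19.8% fell. Of 5 coagulation genes, PROCR, the receptor of protein C, rose by 0.62 and 3 fell: TFPI2, an inhibitor of coagulation proteases (-0.52), the thrombin receptor gene F2R (-0.28) and the thrombomodulin gene THBD (-0.23). F2R lost its call without empty vector replicate 1, 3 or 4 or YAPS127A replicate 2, 4 or 5 (adjusted p = 0.0598 to 0.0979), with the actin gap as a covariate (adjusted p = 0.0554), with the neighbours' median removed (adjusted p = 0.0584) and when averaged over its probe sets (adjusted p = 0.831). THBD lost it without empty vector replicate 1 (adjusted p = 0.0709). The fifth gene, TFPI, an inhibitor of the tissue factor pathway, did not pass at its brightest probe set (+0.04, adjusted p = 0.73), but 3 of its 5 probe sets were called lower, as was their mean (-0.24, adjusted p = 0.00316). Of 8 genes of adenosine handling, ADORA2B, a receptor for adenosine, and ADK, which phosphorylates it, rose by 0.42 and 0.44, and the ectonucleotidase gene ENTPD3 fell by 1.07. The neighbours of ADK were higher by 0.29, and ADK did not pass with their median removed (0.15, adjusted p = 0.0862). Calls were also gained on that scale. ENTPD1, another ectonucleotidase gene, had not passed (-0.26, adjusted p = 0.0845) and was then called lower (-0.59, adjusted p = 0.000525). ADORA1, another adenosine receptor gene, went from 0.01 (adjusted p = 0.915) to 0.21 and was called higher (adjusted p = 0.0437). Of 6 Fat and Dachsous cadherin genes, 3 rose and 3 did not pass: FAT3 rose by 2.12 (adjusted p = 3.15e-08), FAT1 by 0.35 and FAT4 by 0.40. FAT4 lost its call without empty vector replicate 2, 3 or 4 (adjusted p = 0.067 to 0.0866) and with the actin gap as a covariate (adjusted p = 0.0524).

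Genes whose pattern lay nearest to a member's were found by the root mean square distance between log2 differences from the empty vector mean over the 9 arrays, among the 12221 genes brighter than the median probe set. Nearest to ANKRD1 were FOLR1 (distance 0.188), PCCA (0.189) and SLC13A3 (0.195). LIMA1 (0.0535), CSTF2T (0.0595) and MICB (0.0607) were nearest to CCN1. For FJX1 they were TUBD1 (0.0518), COL1A1 (0.0599) and AHCTF1 (0.0616).

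The general epithelial markers KRT19 and EPCAM were high in both groups. KRT19 was at 14.19 ± 0.10 (SD, n = 4) and 14.21 ± 0.10 (SD, n = 5), and EPCAM at 13.02 ± 0.08 (SD, n = 4) and 12.96 ± 0.06 (SD, n = 5). Of 8 epithelial and bile duct markers, 3 fell and 1 rose, where 14.2% and 14.5% of all genes did. Among genes brighter than the median probe set, as all but 1 of the 8 were, 19.8% fell and 21.0% rose. The keratin gene KRT8 rose by 0.30 (adjusted p = 0.00741). MUC1 fell by 1.06 and SOX9 by 0.25 (adjusted p = 0.0182). CFTR fell from 6.74 ± 0.20 (SD, n = 4) to 4.02 ± 0.35 (SD, n = 5), a level within the dimmest quartile of probe sets (each array's quartile ended at 4.24 to 4.27), and no size is given for its fall. Of 6 fibroblast markers 4 had signals below the median of all probe sets, COL1A1 fell by 0.70 and LUM rose by 1.45. Their summed level on the log2 scale was 9.12 to 9.29 with the empty vector and 9.35 to 9.81 with YAPS127A, and its part in the changes of the members was not tested. At their brightest probe sets the 9 hepatocyte and endothelial markers differed by -0.17 to 0.11 and did not pass, although 3 of 5 probe sets of PECAM1 and 1 of 5 of CYP3A4 were called lower. Of the leukocyte markers, 1 of 3 (CD14) fell, beside the same 14.2% over all genes. Array medians lay between 5.95 and 5.98.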

How the data were processed

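Total RNA of 9 HuCCT1 samples was labelled with biotin for single-colour arrays, per the labels. From their range of 1.62 to 14.96 the deposited values were taken as log2 signals of probe sets; for how the authors corrected, summarised and normalized them, the method is not given in the sources used. There were 0 columns of other samples. Leaving out 62 controls gave 54613 probe sets to test. In the platform annotation 41091 have a single gene symbol, 1801 more than that and 11721 none; symbols were updated through RefSeq (41003 probe sets matched). The 9 arrays limit the precision.

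Groups came from the labels. limma 3.58.1 (R 4.3.3) was fitted without a covariate over all genes and samples, with Benjamini-Hochberg adjustment and a threshold of 0.05. Each gene stands for the probe set with its highest mean signal, and a log2 difference is YAPS127A minus empty vector. The brightest probe set was compared with each other of its gene by fitting their per-array difference over all genes. Single values were also compared by exact permutation over 126 assignments. The neighbours' median used genes of the same chromosome ordered by their RefSeq start positions, with no limit on the distance in bases. Figures were drawn with matplotlib 3.10.9 (Python 3.11.15).

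The rule for named genes takes all members, up to 4 called genes of each list by lowest p, YAP1, WWTR1, TEAD1 and TEAD4, and the 3 genes nearest to ANKRD1, CCN1 and FJX1. KRT19, EPCAM, KRT8, SOX9, CFTR, MUC1, COL1A1, LUM, PECAM1, CYP3A4 and CD14 were picked from the marker lists after their values were seen. So were TFPI, VGLL2, ENTPD1, ADORA1 and CCN4 from their own lists. The members and lists were chosen with earlier results of these data known. The scripts were also run on simulated data. There the fit recovered 2% of planted changes at a log2 difference of 0.25, 48% at 0.5 and 98% at 1. Only a small part of the probe sets was changed there, whereas 28.7% of genes were called in the real data. The adjustment was therefore stricter in the simulation, and these shares do not give the power of the fit here. In the real data CCN6, for example, passed at 0.25 (adjusted p = 0.0117). A gene that did not pass may still have changed by a small amount.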

Additional observations from a re-analysis of the deposited data

Results flagged for a closer look

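Chance marks about 1 in 20 groups of arrays in this way, and 1 of 42 was marked. At the NT5E probe set 1553994_at, YAPS127A replicate 2 read 8.49 while the other 4 arrays of its group read 8.74 to 8.82. Its gap to the nearest array was 0.754 of the group's range. This probe set was not called, and the reason for the low array was not tested.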

How the results depend on the processing

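The alternatives covered normalization, dim probe sets, variance settings, array weights, gene means, the actin gap, the neighbours' median and each array left out; leaving out both arrays with the largest actin gap and using 20 neighbours were chosen after seeing the data. The counts of members called higher (4) and lower (1) were the same without any 1 array. Members called lower came to 2 with the neighbours' median removed. F3 turned to -0.31, or -0.27 with 20 neighbours, and ASAP1 to 0.17 or 0.16 (adjusted p = 0.124 and 0.157), which did not pass. Of 218 values of members under an alternative, 205 kept direction and call, 4 lost the call in the same direction, 5 gained it in the same direction, and 4 reversed, of which the 2 of F3 were called. The other targets called lower came to 2 with trend and robust settings and with gene means. The factors called lower came to 0 with either neighbours' median removed and to 2 with both gap arrays left out, with 1 to 2 over single arrays left out. Partners called lower came to 2 with both gap arrays left out, with 2 to 4 over single arrays. The cause was not tested. Same-numbered arrays were not paired: their deviations correlated at -0.25 to 0.04, 0 of 4 numbers matched best with their own, and with the replicate number as a block 2861 genes rose, 2782 fell, and ANKRD1 differed by 2.24. Signals near the lower quartiles of the arrays (4.24 to 4.27) limit what dim genes can show.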
